A study of Mus musculus with 12 samples.

Results

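The 8 genes described here are the mouse 2′-5′-oligoadenylate synthetase (OAS) family members Oas1a, Oas1b, Oas1c, Oas1g, Oas2, Oas3, Oasl1 and Oasl2, taken from the expression table by exact match of their symbols. They are 8 of 53801 gene records, and all 8 were among the 13078 genes that passed the filter on low values. That filter asked for at least 1 FPKM (fragments per kilobase, scaled to library size) in at least 3 of the 12 libraries. Abce1, Pde12 and 3 lists of interferon-linked genes are given beside them.

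RNA was sequenced from RAW264.7 cells, a mouse macrophage-like line of BALB/c origin that is grown in culture. The 4 groups of 3 libraries were cells with an siRNA against Synbindin after 4 h of 100 ng/ml LPS, cells with a control siRNA after the same LPS, cells with the Synbindin siRNA and no LPS (0 h), and cells with the control siRNA and no LPS (0 h). They are called silenced and control cells below. Synbindin, encoded by Trappc4, is a subunit of the TRAPP complexes that act in membrane trafficking, and LPS (lipopolysaccharide) is the bacterial cell wall component sensed by TLR4. Every group is the same cell line, the protocol gives no cells without any siRNA, and the sequence of the siRNA is not given in the sources used here, so an effect of Synbindin loss and one of that siRNA itself cannot be told apart.

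OAS proteins sense double-stranded RNA, often of viral origin, and the active ones then join ATP into 2′-5′-linked oligoadenylates. These small molecules act as second messengers that set off the breakdown of RNA, which halts protein synthesis in an infected cell. Interferons induce the genes through the transcription factor complex ISGF3, which binds the interferon-stimulated response element, and macrophages given LPS make interferon beta and so reach the same genes without a virus.

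The sequences just before the starts of 4 members are shown because they carry the response element core that the family's induction is usually ascribed to. The core was searched as GAAANNGAAA on both strands of the RefSeq promoter windows of GRCm38.p6, which run from 250 bases before to 50 bases after a gene's start. It was present in 4 of the 6 windows found for the members, against 3.44% of all 32851 windows. The 150 bases before each start are printed below, 5′ to 3′ on the gene's own strand, with the matches in capitals.
Oas3, chr5:120777660-120777809, minus strand: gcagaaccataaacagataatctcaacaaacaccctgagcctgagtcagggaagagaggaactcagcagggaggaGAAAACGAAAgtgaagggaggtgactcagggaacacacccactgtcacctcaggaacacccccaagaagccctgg
Oas1a, chr5:120907526-120907675, minus strand: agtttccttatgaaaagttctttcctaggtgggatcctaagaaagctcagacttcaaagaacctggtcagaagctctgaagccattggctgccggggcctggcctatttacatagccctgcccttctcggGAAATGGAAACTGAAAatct
Oas1g, chr5:120887614-120887763, minus strand: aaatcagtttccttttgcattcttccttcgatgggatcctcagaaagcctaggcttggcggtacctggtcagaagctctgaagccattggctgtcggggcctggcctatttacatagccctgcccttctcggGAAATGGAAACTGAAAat
Oas1c, chr5:120812515-120812664, minus strand: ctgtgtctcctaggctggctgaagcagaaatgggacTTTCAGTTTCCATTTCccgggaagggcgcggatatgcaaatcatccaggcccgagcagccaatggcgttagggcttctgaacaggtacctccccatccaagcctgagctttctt
Oas1a, Oas1g and Oas1c held 1 identical run of 16 bases, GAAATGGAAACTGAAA, made of a pair of overlapping cores, and this run was found in 7 of all 32851 windows. In Oas1a and Oas1g it lay on the gene's strand and began 20 and 18 bases before the start. In Oas1c it lay on the other strand, at chr5:120812613-120812628, and Oas1b is transcribed away from Oas1c there. The starts of that pair lay 0.121 kb apart in the GENCODE annotation, and the run ended 7 bases before the Oas1b start. Oas3 held another core, GAAAACGAAA, 75 bases before its start. The windows of Oasl1 and Oasl2 held no match to these letters, and no window was found for Oas2 or Oas1b. A second motif, the gamma-activated sequence TTCNNNGAA, was present in the Oas1a window and in 8.3% of all windows. These matches describe the C57BL/6J reference and no binding was measured.

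All members lie on chromosome 5 (GRCm38, GENCODE M21 coordinates). The 6 OAS1, OAS2 and OAS3 genes fall between 120730333 and 120907521, and the pair of OASL genes between 114896936 and 114937915. Oas1a and Oas1g are close copies: 57.6% of the 50-base words in Oas1a transcripts were also in Oas1g transcripts, so their separate values depend on how the authors' counting placed shared fragments and are uncertain. The share of words found in other family members was 9.82% for Oas1c, 1.17% for Oas1b and 0 for Oas2, Oas3, Oasl1 and Oasl2. Gm43069, an antisense transcript beginning 135 bases from the Oas3 start, had at most 0.648 FPKM in any library. Gm13822, antisense to the start of Oasl1, had 2.41 to 6.01 FPKM after LPS and 0 to 1.41 without it, and whether the authors' counting used strand is not given in the sources used here.

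Depths estimated from the deposited values ran between 7.36 and 17.6 M (mega) fragments in a library, and 11672 to 12351 genes reached 1 FPKM. These estimates are rough, since only 9.88% to 15.3% of low values came out as whole fragments in a library. The share that values without such steps would give was not computed, so this share does not show that the depths are right. They were higher on average in silenced libraries, with 15.2 ± 2.14 M against 11.9 ± 1.54 M in control libraries after LPS, and 11.99 ± 4.43 M against 9.11 ± 2.15 M without LPS (SD, n = 3 each). Trappc4 had 5.86, 7.71 and 8.26 FPKM in silenced cells after LPS and 13.8, 15.7 and 9.45 in control cells after LPS; without LPS it had 4.35, 7.17 and 6.15 FPKM in silenced cells and 14.1, 13.1 and 12.5 in control cells. The silenced libraries were below the control ones in both settings, yet neither difference passed the test, with adjusted p = 0.120 after LPS and 0.0558 without it. Of 9 macrophage marker records, 7 reached 1 FPKM in all 12 libraries, and summed markers of T, B, neutrophil, fibroblast, epithelial, endothelial and plasmacytoid dendritic cells stayed at or below 1.92 FPKM in every library. Among the macrophage markers, Mertk had at most 0.116 FPKM in any library. The macrophage markers summed to 1997 to 2722 FPKM in silenced and 1490 to 1879 in control libraries after LPS, and to 2158 to 2607 in silenced and 1560 to 1699 in control libraries without LPS. The Lyz2 part of that sum set it apart, at 1097 ± 229 FPKM in silenced and 463 ± 40.9 in control cells after LPS and 1214 ± 222 in silenced and 554 ± 41.1 in control cells without LPS (SD, n = 3 each); Cd14 also separated the groups without LPS, while Cd68, Csf1r, Spi1 and Adgre1 overlapped between silenced and control libraries in both settings. Whether replicates are separate transfections is not stated in the labels, and the p-values therefore rest on a spread between libraries that may be technical. In bulk RNA, fewer responding cells and less RNA per cell cannot be told apart.

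LPS raised every member of the family, in silenced and in control cells. All 8 members were called higher (adjusted p under 0.05) in silenced cells, where 13.0% of all tested genes were called higher, and all 8 in control cells, where 15.3% were. No LPS library of either siRNA overlapped its own unstimulated group for any member, against 16.0% of tested genes separated upward in silenced cells and 18.2% in control cells. On the log2(FPKM + 1) scale the median member differed by 2.27 in silenced and 1.82 in control cells, and the median tested gene by -0.21 and -0.17. Under median-ratio scaling the medians of all genes became 0.02 and 0.03, while all 8 members remained called higher in both.

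**Figure D1:**
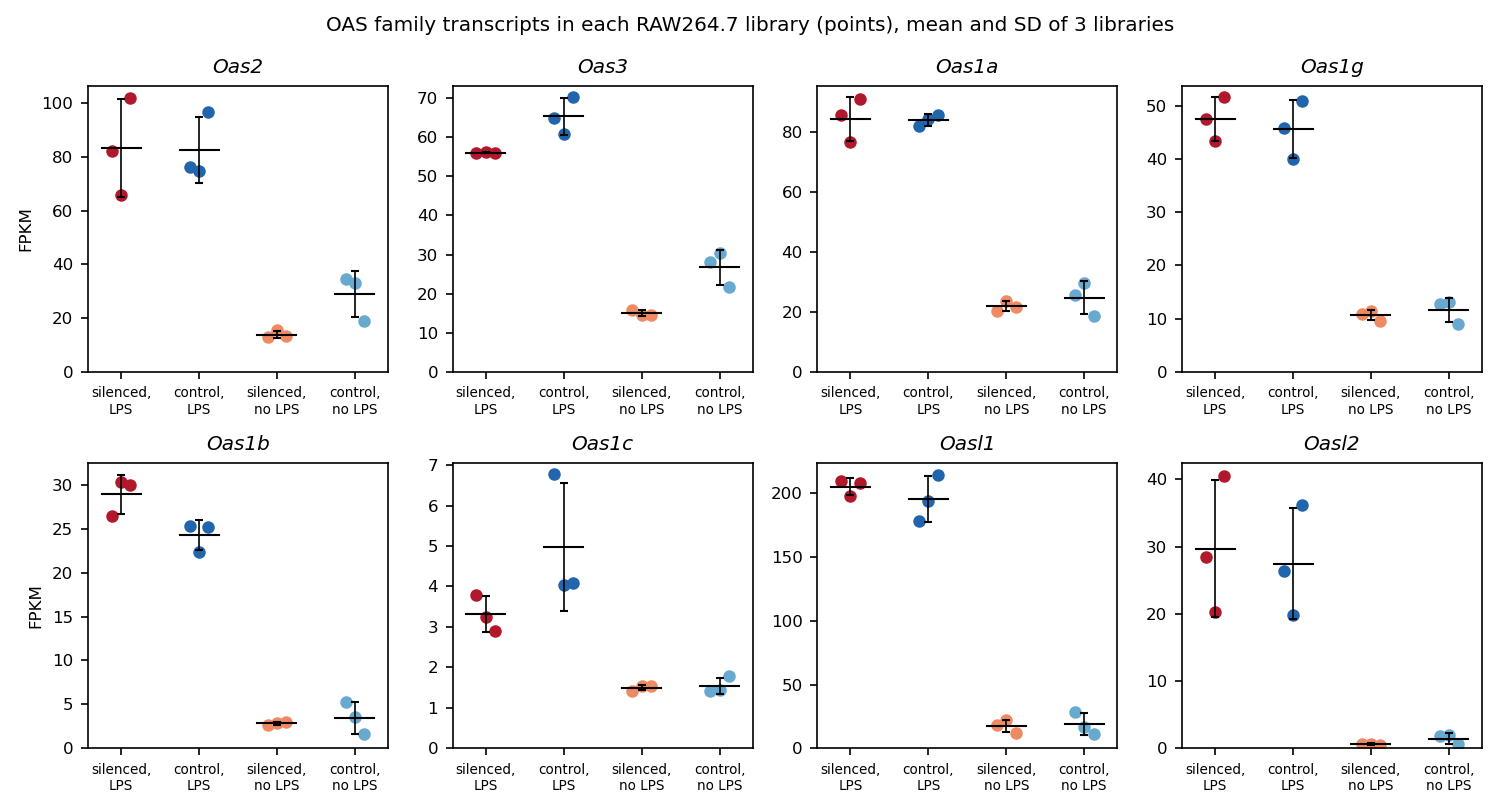
FPKM of the 8 OAS family genes (y axes, linear, from 0, scaled per gene) in each of the 12 libraries (points), with the mean and SD of 3 libraries per group, in the order silenced with LPS, control with LPS, silenced without LPS, control without LPS. Every gene is higher with LPS than without, and without LPS the silenced points of Oas2 and Oas3 lie below all 3 control points.

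The OASL genes showed the largest differences with LPS among the 8 members. Oasl1, whose product has lost synthetase activity and in mice represses translation of Irf7, had 210, 198 and 208 FPKM in silenced cells and 178, 194 and 214 in control cells after LPS. Without LPS it had 18.0, 22.3 and 12.3 FPKM in silenced cells and 28.7, 17.1 and 11.6 in control cells. Silenced and control libraries overlapped in both settings. Oasl1 was the most abundant member after LPS in all 6 libraries, with a log2 difference of 3.51 ± 0.27 (SE) in silenced and 3.37 ± 0.27 in control cells. Oasl2, which carries ubiquitin-like domains and in mice keeps synthetase activity, had 28.4, 20.2 and 40.5 FPKM in silenced cells and 26.4, 19.8 and 36.2 in control cells after LPS. Without LPS its values were 0.708, 0.695 and 0.425 FPKM in silenced cells and 1.82, 1.96 and 0.574 in control cells. The groups again overlapped in both settings, through control replicate 3 without LPS. Its log2 difference with LPS was the highest of the family, 4.21 ± 0.29 in silenced and 3.55 ± 0.29 in control cells, and relative to its mean FPKM it spread more within each LPS group than Oasl1 did.

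Oas2 and Oas3, the larger synthetases built from repeated OAS units, were among the abundant members without LPS. Oas2 had 82.4, 65.7 and 102 FPKM in silenced cells and 76.3, 74.9 and 96.9 in control cells after LPS. Without LPS it had 12.8, 15.5 and 13.3 FPKM in silenced cells and 34.6, 33.0 and 19.1 in control cells. Every silenced library was below every control library without LPS, and the groups overlapped after LPS. The log2 difference with LPS was 2.49 ± 0.22 in silenced and 1.52 ± 0.22 in control cells. Oas3, which in human cells is a main source of these oligoadenylates, had 55.9, 56.3 and 56.0 FPKM in silenced cells and 65.0, 60.9 and 70.3 in control cells after LPS. Without LPS it had 15.8, 14.5 and 14.5 FPKM in silenced cells and 28.1, 30.4 and 21.6 in control cells. Silenced libraries were below control libraries in both settings, and they lay closer to each other than the control ones did. The difference with LPS was 1.84 ± 0.11 in silenced and 1.27 ± 0.11 in control cells.

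Among the OAS1 genes, Oas1a and Oas1g encode active synthetases in mice. Oas1a had 85.6, 76.4 and 90.8 FPKM in silenced cells and 81.8, 84.2 and 85.5 in control cells after LPS, against 20.3, 23.6 and 21.6 in silenced cells and 25.6, 29.6 and 18.7 in control cells without LPS. Oas1g had 47.5, 43.4 and 51.6 FPKM in silenced cells and 45.9, 40.1 and 50.9 in control cells after LPS, against 10.9, 11.5 and 9.58 in silenced cells and 12.7, 13.1 and 8.98 in control cells without LPS. For both genes silenced and control libraries overlapped in both settings. The close copies moved alike, with log2 differences with LPS of 1.90 and 2.06 in silenced cells and 1.75 and 1.90 in control cells, in the order Oas1a, Oas1g. Within each library Oas1a stood at 1.68 to 2.26 times Oas1g in FPKM.

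Oas1b is the flavivirus resistance gene of wild mice; most laboratory strains carry a truncating allele of it, and the reference annotation classes it as a polymorphic pseudogene. It had 26.4, 30.3 and 30.0 FPKM in silenced cells and 25.3, 22.3 and 25.2 in control cells after LPS. Without LPS it had 2.67, 2.87 and 3.02 FPKM in silenced cells and 5.28, 3.58 and 1.64 in control cells. The silenced libraries were above the control ones after LPS and inside their range without it. Its log2 difference with LPS, 2.95 ± 0.23 in silenced and 2.57 ± 0.23 in control cells, was the highest among the OAS1 genes. Oas1c, its neighbour on the opposite strand, had 3.79, 3.24 and 2.91 FPKM in silenced cells and 6.79, 4.04 and 4.09 in control cells after LPS. Without LPS it had 1.42, 1.54 and 1.53 FPKM in silenced cells and 1.41, 1.43 and 1.78 in control cells. The silenced libraries were below the control ones after LPS, where control replicate 1 was the highest, and inside their range without it. On the log2(FPKM + 1) scale, which shrinks the differences of low genes, Oas1c had the lowest LPS difference of the family, 0.78 ± 0.16 in silenced and 1.21 ± 0.16 in control cells, and its start lies 0.121 kb from that of Oas1b. As ratios of mean FPKM with LPS over without, Oas1c had 2.21 in silenced and 3.23 in control cells, and Oas3 had 3.75 in silenced and 2.45 in control cells, so in control cells the ratio of Oas3 was the lower one.

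The ranking of the family by FPKM differed between the LPS and unstimulated libraries. After LPS the order of the group means was Oasl1, Oas1a, Oas2, Oas3, Oas1g, Oasl2, Oas1b and Oas1c in silenced and in control cells alike, and the neighbours whose libraries overlapped were Oas1a with Oas2 and Oasl2 with Oas1b. Without LPS the order was Oas1a, Oasl1, Oas3, Oas2, Oas1g, Oas1b, Oas1c and Oasl2 in silenced cells, and Oas2, Oas3, Oas1a, Oasl1, Oas1g, Oas1b, Oas1c and Oasl2 in control cells. In silenced cells the first 3 genes each overlapped the next in rank and each step from Oas2 downward was free of overlap, while in control cells only the step from Oas1g to Oas1b was free of it. Summed over the 8 genes, the family had 538 ± 44.1 FPKM in silenced and 530 ± 46.2 in control cells after LPS, and 83.8 ± 8.22 in silenced and 117.5 ± 29.3 in control cells without LPS (SD, n = 3 each). Oasl1 made up 38.2% of that sum in silenced and 36.9% in control cells after LPS, and 20.7% in silenced and 15.9% in control cells without it.

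**Figure D2:**
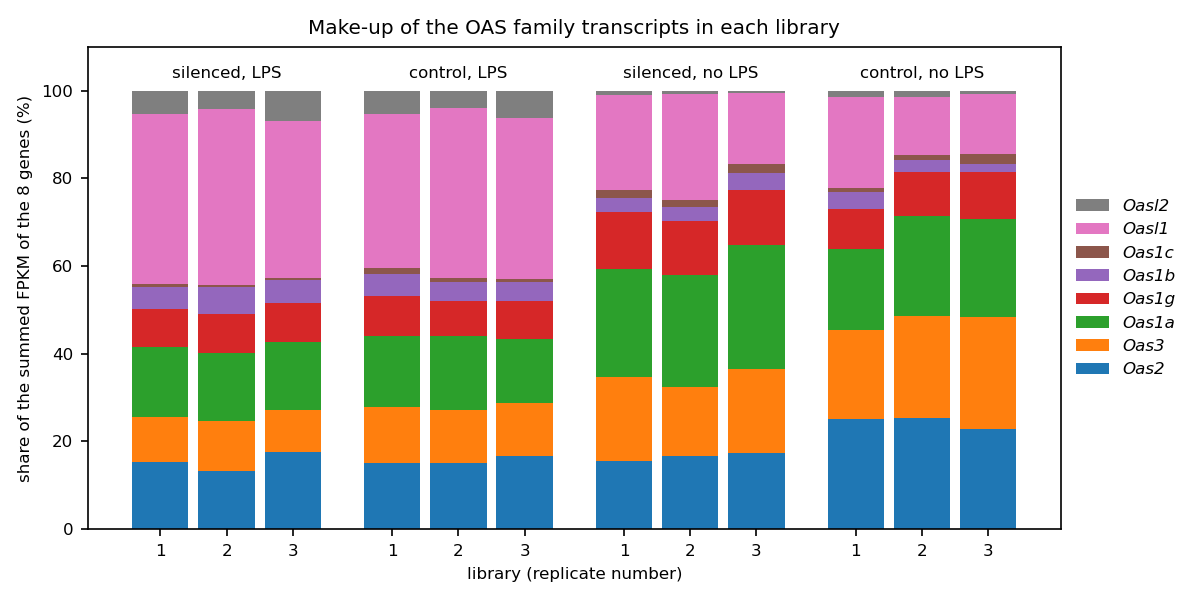
Share of the summed FPKM of the 8 genes held by each gene (y axis, %, from 0 to 100) in each library (bars, numbered by replicate), grouped as silenced with LPS, control with LPS, silenced without LPS and control without LPS. Oasl1 takes the largest share in every LPS bar, and the Oas2 and Oas3 blocks together are shorter in the 3 silenced bars without LPS than in the 3 control bars beside them.

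Without LPS, Oas3 fell in silenced cells, Oas2 was lower without passing the test, and the 4 OAS1 genes had estimates between -0.15 and -0.02. Oas3 averaged 15.0 ± 0.744 FPKM in silenced cells and 26.7 ± 4.59 in control cells (SD, n = 3 each), a log2 difference of -0.78 ± 0.11 (SE; 95% interval -1.03 to -0.54; adjusted p = 0.0282). It was 1 of the 8 members called, where 0.214% of tested genes were called and 0.0918% were called lower. Oas2 averaged 13.8 ± 1.43 FPKM in silenced cells and 28.9 ± 8.51 in control cells, a larger difference of -0.97 ± 0.22 with adjusted p = 0.115. For both genes all 3 silenced libraries lay below all 3 control libraries, a separation seen downward in 2 of the 8 members and in 8.35% of tested genes. The call for Oas3 was lost in 6 of 12 fits that each left out 1 library. These left out, among the libraries without LPS, silenced replicate 1 (adjusted p = 0.0607), silenced replicate 2 (0.136), control replicate 1 (0.127) or control replicate 2 (0.0760), and among the LPS libraries silenced replicate 2 (0.0581) or control replicate 1 (0.0554), whereas the difference stayed between -0.92 and -0.69 in the 12. It was also lost in a fit of the 6 unstimulated libraries alone (0.192), with a flat prior spread in place of the trend (0.0516) and after adding the rough estimate of library depth to the model (0.0722). Besides Lyz2 and Cd14 above, the share of summed FPKM from mitochondrial genes also separated these groups, at 15.3% to 16.8% in silenced and 17.1% to 18.7% in control libraries, and the part of these in the result was not tested.

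The remaining 6 members did not pass the test without LPS. Oasl2 had a log2 difference of -0.56 ± 0.29 between silenced and control cells (adjusted p = 0.485), with 1.45 ± 0.761 FPKM in control cells near the low end of the measured range. The differences were -0.15 for Oas1a, -0.14 for Oas1b, -0.10 for Oas1g, -0.07 for Oasl1 and -0.02 for Oas1c, each with an adjusted p of at least 0.711. Their 95% intervals still allowed falls of 0.45 for Oas1a, 0.40 for Oas1g, 0.65 for Oas1b and Oasl1, and 0.38 for Oas1c. All 8 estimates were negative and their median was -0.14, where the median of all tested genes was 0.01. When the FPKM of the OAS1 genes were summed as a single feature, to avoid the split between close copies, the difference was -0.14 ± 0.14 (adjusted p = 0.723).

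**Figure D3:**
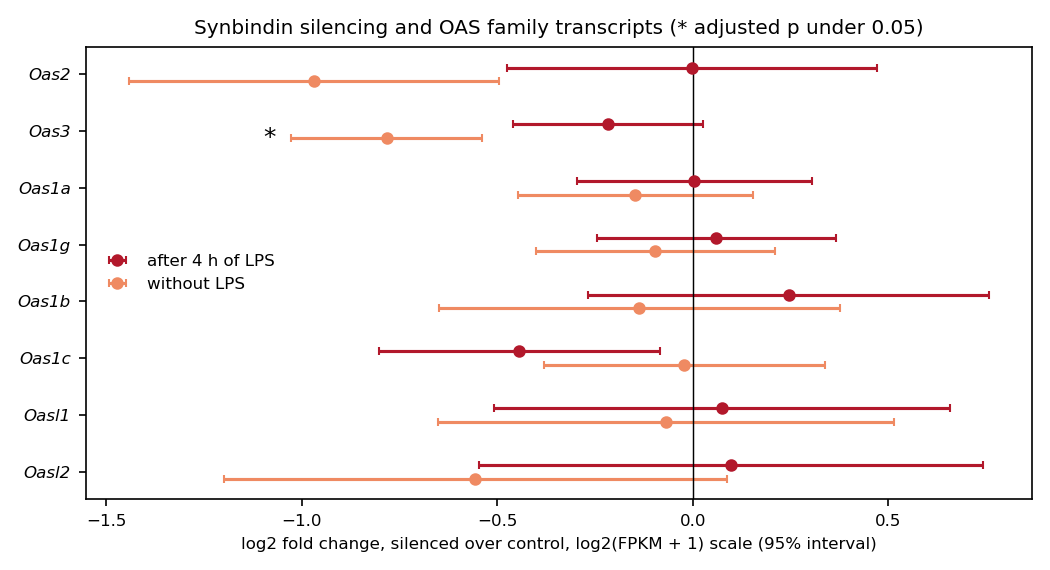
Log2 difference, silenced over control cells, for each gene (x axis, log2(FPKM + 1) scale) with its 95% interval, after 4 h of LPS (dark) and without LPS (light). The asterisk marks Oas3 without LPS at -0.78, the only called difference, and after LPS the intervals of 7 of the 8 genes include 0.

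Ratios within a library do not depend on that library's scaling, and they were computed after the values had been seen, so they are a description. Oas3 stood at 0.781, 0.615 and 0.672 times Oas1a in silenced cells and at 1.10, 1.03 and 1.15 times in control cells without LPS. Oas2 stood at 0.630, 0.654 and 0.616 times Oas1a in silenced cells and at 1.35, 1.12 and 1.02 times in control cells without LPS. Neither ratio overlapped between the groups, including the control library with the lowest values. Oas2 and Oas3 had already separated these groups on their own, so the ratios reuse that separation. The share of other genes whose ratio to Oas1a separates the groups was not computed. Oas1a shares 57.6% of its 50-base words with Oas1g, so its own value, and with it these ratios, is uncertain. After LPS the Oas2 ratio was 0.963, 0.860 and 1.12 in silenced and 0.933, 0.889 and 1.13 in control cells, and the Oas3 ratio was 0.653, 0.736 and 0.617 in silenced and 0.795, 0.723 and 0.823 in control cells, so both overlapped. Oas2 and Oas3 are also neighbours, at the end of the cluster farthest from Oas1a, and whether position has a part in the result was not tested.

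**Figure D4:**
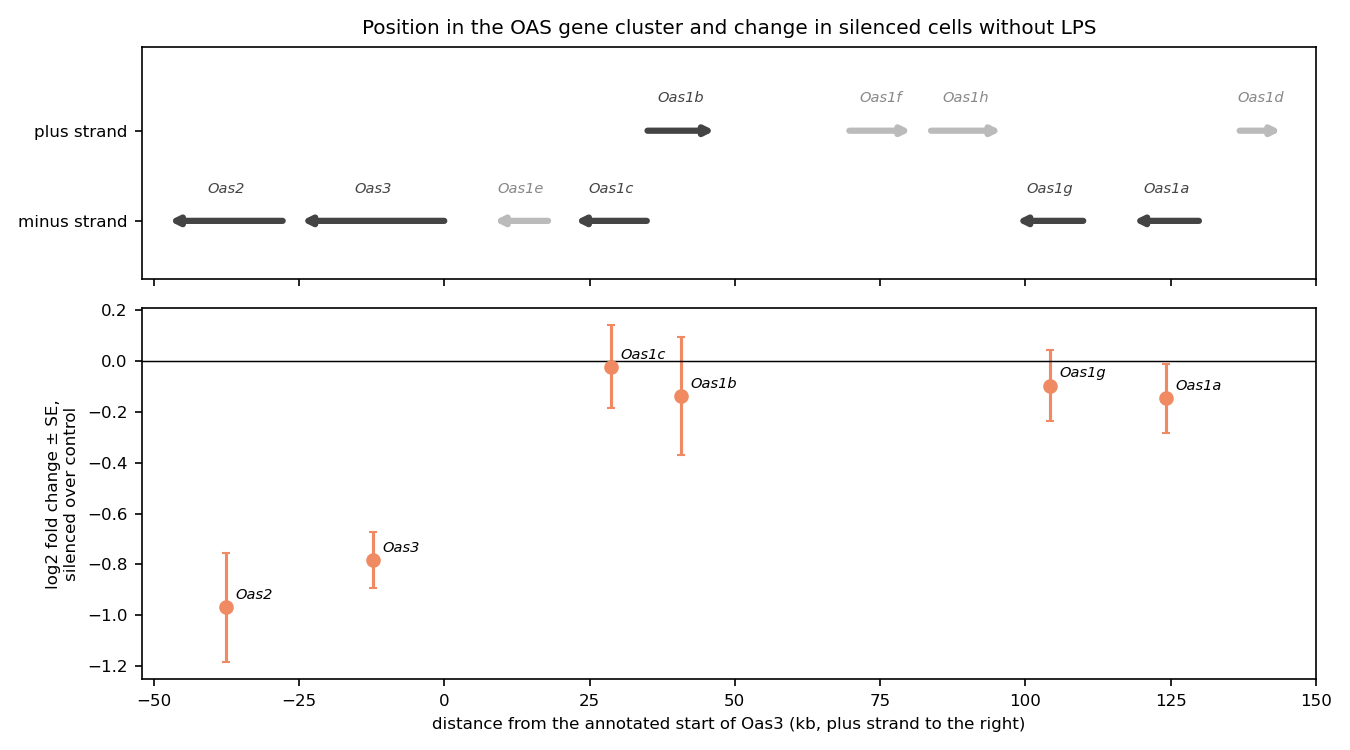
Top, the OAS1, OAS2 and OAS3 genes along chromosome 5 as arrows on their strand, members dark and other Oas1 genes grey, by distance from the annotated start of Oas3 (kb). Bottom, log2 difference (± SE) between silenced and control cells without LPS at each member's position: Oas2 (-0.97) and Oas3 (-0.78) lie together on the left and the 4 OAS1 members between -0.15 and -0.02 to their right.

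Control replicate 3 stood apart from the other control libraries without LPS in these genes. It was the lowest control library for 7 of the 8 members, all but Oas1c, where it was lowest for 36.3% of all tested genes. Its estimated depth was 11.6 M, against 7.86 and 7.88 M in control replicates 1 and 2. With it left out, Oas2 was also called lower in silenced cells (-1.23, adjusted p = 0.0340), next to Oas3 (-0.92, adjusted p = 0.00164), and the members' median difference became -0.42. In that fit 41 of 13078 tested genes were called, and this library was singled out after its values had been seen. All 3 silenced libraries lay below both remaining control libraries for 6 of the 8 members, where this held for 15.3% of tested genes. That library was also the lowest control for 8 of 10 nucleic acid sensors and 7 of 8 antiviral interferon-stimulated genes, but for 4 of 10 interferon signalling genes, and its part in the result was otherwise not tested.

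After LPS, no member passed the test between silenced and control cells, where 0.719% of tested genes were called. At an unadjusted p under 0.05 there was 1 of the 8 members, Oas1c, and 13.0% of tested genes. Oas1c averaged 3.31 ± 0.444 FPKM in silenced cells and 4.97 ± 1.57 in control cells (SD, n = 3 each), a log2 difference of -0.44 ± 0.16 (95% interval -0.80 to -0.08; adjusted p = 0.271). Oas3 differed by -0.22 ± 0.11 (adjusted p = 0.449) and Oas1b by 0.25 ± 0.23 (adjusted p = 0.717). Silenced and control libraries did not overlap for these 3 genes, Oas1b being higher and Oas1c and Oas3 lower in silenced cells, where 18.9% of tested genes showed no overlap. Oas2, at 83.4 ± 18.1 FPKM in silenced and 82.7 ± 12.3 in control cells, differed by -0.00105 ± 0.22, with a 95% interval of -0.47 to 0.47.

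Oas1b and Oas1c were also set against each other within libraries, as a description made after the values had been seen. Oas1b stood at 6.99, 9.34 and 10.3 times Oas1c in silenced cells and at 3.72, 5.51 and 6.16 times in control cells after LPS. Without LPS the ratio was 1.88, 1.86 and 1.98 in silenced cells and 3.74, 2.51 and 0.924 in control cells. The ratio was higher in every silenced than in every control library after LPS. That follows from Oas1b being higher and Oas1c lower in all silenced libraries there, so it is no separate evidence. Without LPS the ratio overlapped, with Oas1c at FPKM values near the filter.

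The interaction, the LPS difference in silenced cells minus that in control cells, was called for none of the 8 members, where 0.0612% of tested genes were called. It was 0.97 ± 0.31 for Oas2 (adjusted p = 0.2997) and 0.57 ± 0.16 for Oas3 (adjusted p = 0.272), the 2 of 8 members with an unadjusted p under 0.05, as 11.3% of tested genes had. Oasl2 had 0.65, Oas1b 0.38, Oas1g 0.16, Oas1a 0.15, Oasl1 0.14 and Oas1c -0.42. The effect of silencing without LPS is thus not shown to differ from that after LPS for any member.

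Of 2 further genes of the oligoadenylate pathway, 1 was called lower with LPS, where 35.5% of tested genes were called lower in silenced and 32.9% in control cells. Pde12, a phosphodiesterase that degrades 2′-5′-oligoadenylates, fell with LPS by 0.51 in silenced and 0.57 in control cells (adjusted p = 0.00177 and 0.000896). Abce1, an ATP-binding cassette protein that splits ribosomes for recycling, stayed between 66.0 and 71.3 FPKM in all 12 libraries. The other Oas1 genes were near 0: Oas1e and Oas1f were listed at 0 in every library, Oas1d had at most 0.0942 FPKM, and Oas1h had at most 1.91 FPKM and was called higher with LPS in silenced (1.17) and control cells (1.01).

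Genes that work beside the family were read from lists chosen with earlier results of these data known. Over all tested genes, 13.0% were called higher and 35.5% lower with LPS in silenced cells, and 15.3% higher and 32.9% lower in control cells. Of 10 nucleic acid sensors, 7 were called higher and 2 lower with LPS in silenced cells, and 7 higher and 1 lower in control cells. Ifih1, which encodes the double-stranded RNA receptor MDA5, had log2 differences of 4.63 and 4.08 in silenced and control cells, Zbp1 of 4.51 and 3.60, Ddx58 (RIG-I) of 3.28 and 2.68, and Tlr3 of 2.54 and 2.08. Of 10 interferon signalling genes, 6 rose and 2 fell in silenced cells and 6 rose and 1 fell in control cells, among them Irf7 (2.82 in silenced and 1.90 in control cells), Irf1 (2.86 and 2.54) and Stat2 (2.73 and 2.35). Ifnb1, encoding interferon beta, had 3.04, 3.36 and 4.41 FPKM in silenced and 2.10, 2.29 and 1.21 in control cells after LPS, with all 6 libraries without LPS listed at 0, and the difference between silenced and control cells after LPS was 0.69 ± 0.17 (adjusted p = 0.106). All 8 antiviral interferon-stimulated genes rose in both, with medians of 5.59 in silenced and 5.15 in control cells, against the family's 2.27 and 1.82.

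Without LPS, none of these lists held a called difference between silenced and control cells. The median difference was -0.31 for the sensors, -0.60 for the antiviral genes and -0.06 for interferon signalling. Ifit2 went against the antiviral median, at a mean of 5.32 FPKM in silenced and 3.34 in control cells, with overlap. The other antiviral genes had lower means in silenced cells. Irf7, which drives later interferon production, had 4.28, 4.59 and 3.54 FPKM in silenced cells and 9.14, 7.22 and 5.63 in control cells, a difference of -0.68 ± 0.16 (adjusted p = 0.127) with no overlap between the groups. Such a downward separation was seen in 8.35% of tested genes. Zbp1 had 0.474, 0.436 and 0.279 FPKM in silenced cells and 2.22, 2.36 and 0.453 in control cells, so control replicate 3 lay among the silenced libraries. These silenced values were all under the 1 FPKM used in the filter. With control replicate 3 left out, Zbp1, Ifit3 and Rsad2 were called lower in silenced cells, the interaction of Zbp1 was called, and the medians became -0.50 for the sensors, -0.96 for the antiviral genes and -0.03 for interferon signalling, where no gene was called. Over all tested genes, 41 were called between silenced and control cells without LPS in that fit, and 8 in the interaction. After LPS no gene of these lists was called between silenced and control cells.

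**Figure D5:**
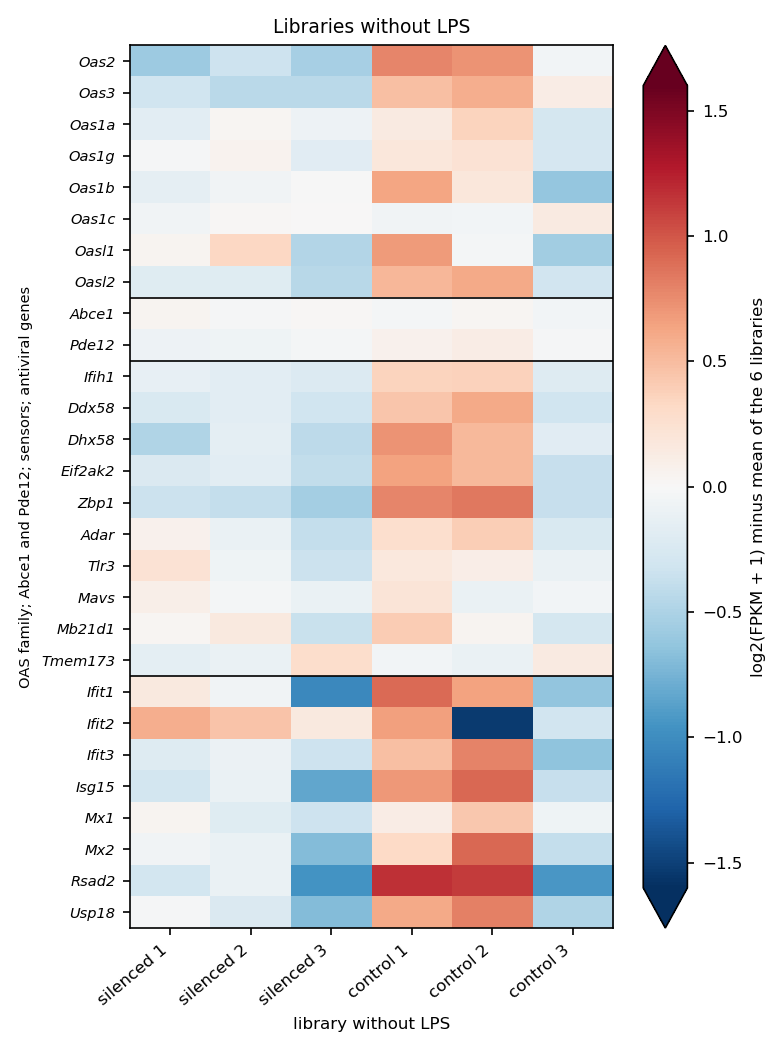
Log2(FPKM + 1) of each gene (rows: OAS family, Abce1 and Pde12, sensors, antiviral genes) minus its mean over the 6 libraries without LPS (columns: silenced 1 to 3, then control 1 to 3), red above and blue below that mean. Control replicates 1 and 2 are red for most interferon-linked rows, while control replicate 3 is blue for most of them and pale for Oas2 and Oas3.

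The genes most like each member in pattern were those with the smallest root mean square difference of mean-centred log2(FPKM + 1) over the 12 libraries, 2 for each member. For Oas1a they were Uba7 (0.11) and Cdkn1a (0.12), for Oas1g Uba7 (0.12) and Slc4a7 (0.12), and for Oas3 Gm46224 (0.17) and Cdkn1a (0.22). Oas2 was most like H2-T24 (0.21) and Hsh2d (0.24), and Oas1b like Irf1 (0.16) and Herc6 (0.18). Oas1c was closest to Cdc42ep4 (0.18) and Gm43464 (0.19), Oasl1 to Gm18445 and Plaur (0.20 each), and Oasl2 to Usp18 (0.24) and Irgm1 (0.26). The measure describes these 12 libraries, which differ most by LPS.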

How the data were processed

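Gene expression was read from 1 deposited table of FPKM values in 12 libraries, 4 groups of 3 by siRNA and LPS in the labels. The authors made these FPKM values before deposit; HISAT2, StringTie and the build GRCm38 are named, without versions, in the submitters' processing notes. The gene annotation used and how fragments of repeated sequence were assigned are not given in the sources used. A count test was not applicable to FPKM. Depth was estimated from the smallest step of the values, and since only 9.88% to 15.3% of low values came out whole in a library, the depths are rough.

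Differences were tested with limma 3.58.1 (R 4.3.3) on log2(FPKM + 1) of the 13078 genes with at least 1 FPKM in at least 3 libraries, with 1 mean per group, an intensity trend and 8 residual degrees of freedom. The pseudocount of 1 understates changes of low genes. Benjamini-Hochberg adjustment ran over all tested genes in each of 5 comparisons, with 2-sided p-values, and called means an adjusted p under 0.05. Some genes of the lists are not reported here. The members and lists were chosen with earlier results of these data known. From each list, a rule picked members called, up to 4 by smallest p, and otherwise the 2 with the smallest p. Not every gene picked was named in the text. No antiviral gene was named for LPS. Of the interferon-linked lists in the main fit, just Irf7 and Zbp1 were named for silencing without LPS, and just Ifnb1 after LPS. Genes listed beside a left-out library were named after their values were seen. Alternatives were another pseudocount, filters, scalings, a replicate block, fits on just the compared groups, no trend, summed OAS1 values, leaving out each library and, chosen after seeing the data, estimated depth as a covariate. The procedure was tested on simulated data. Promoter windows came from RefSeq and gene positions from GENCODE M21, both read with Python 3.11.15 and pandas 2.3.3.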

Additional observations from a re-analysis of the deposited data

Results flagged for a closer look

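In 9 of the 40 genes examined (the members, Trappc4 and the tested genes of the lists beside them), all 3 silenced libraries lay below the control mean without LPS and above it after LPS. One is a family member: Oas1b, with an interaction log2 difference of 0.38 (adjusted p = 0.691). The others were Usp18 with 0.98 (adjusted p = 0.403), Irf7 with 0.92 (adjusted p = 0.214), Mx2 with 0.88 (adjusted p = 0.420), Irf9 with 0.65 (adjusted p = 0.526), Ddx58 with 0.60 (adjusted p = 0.476), Ifih1 with 0.55 (adjusted p = 0.374), Adar with 0.44 (adjusted p = 0.491) and Stat2 with 0.38 (adjusted p = 0.512). None passed limma's test of the interaction, so an opposite effect of silencing in the 2 settings is not shown for any of them, and each control mean without LPS includes control replicate 3. The share of all tested genes with this pattern was not computed, so the 9 of 40 has no background to be read against. With 3 libraries a group, no statistical test for a single outlying library was run.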

How the results depend on the processing

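All 8 members were called higher with LPS, in silenced and in control cells, under every alternative that tested them (the stricter filter leaves out Oas1c), and no alternative called a member after LPS between silenced and control cells or in the interaction. The Oas3 call without LPS was the exception named beside its value: the number of members called was 0 with only the groups compared, with no trend and with the depth covariate, and 0 to 2 over the fits without 1 library. Over all genes, calls between silenced and control cells without LPS numbered 28, against 6, 10 and 9 under those 3 settings, 48 with the replicate block and 3 to 41 without 1 library. After LPS they numbered 94, against 0, 50 and 18, 38 after quantile normalization and 10 to 91 without 1 library; the 0 came with 1622 genes at an unadjusted p under 0.05. Interaction calls numbered 8, against 5 with a pseudocount of 0.1, 4 with no trend and 0 to 20 without 1 library. Called LPS genes stayed between 5462 and 6418 in silenced and 5602 and 6322 in control cells without 1 library. With LPS, 26.8% of calls were higher in silenced and 31.7% in control cells, but 51.6% and 53.3% after median-ratio scaling.

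No call was attached to a difference that changed sign. Without LPS these were Oasl1 (0.12 with the depth covariate, -0.36 to 0.26 without 1 library), Oas1b (-0.48 to 0.15), Oas1c (-0.057 to 0.044) and Abce1 (-0.021 after quantile normalization). After LPS they were Oas1a (-0.038 after scaling to a common sum, -0.00172 after quantile normalization, -0.051 to 0.072), Oas2 (0.040 after median-ratio scaling, 0.10 with the depth covariate, -0.16 to 0.16), Oas1c (0.046 as part of the OAS1 sum), Oas1g (-0.029 to 0.14), Oas1h (-0.015 after a common sum, -0.00422 with the depth covariate, -0.077 to 0.10), Oasl2 (-0.15 to 0.34) and Pde12 (-0.16 to 0.014). In the interaction they were Oasl1 (-0.18 to 0.44) and Pde12 (-0.047 to 0.13). The summed OAS1 feature gave 0.046 after LPS and 0.19 in the interaction. Oas1c is a small part of that sum, with 4.97 FPKM beside 83.8 for Oas1a in control cells after LPS. Oas1c itself stayed negative without 1 library, at -0.55 to -0.24 after LPS and -0.53 to -0.22 in the interaction. Trappc4 with LPS in control cells gave 0.17 after median-ratio scaling, 0.076 after quantile normalization, 0.11 with the depth covariate and -0.20 to 0.14 without 1 library. The cause was not tested, other than the smaller number of libraries in fits that leave one out.

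Any pairing of the libraries by replicate number was weak and is not settled here. Deviations of same-numbered libraries correlated at -0.03 to 0.19, over 0.1 in 3 of 18 pairs. Those of differently numbered libraries correlated at -0.13 to 0.13, over 0.1 in 1 of 36 pairs. The replicate block called 48, 96, 6595, 6558 and 10 genes for silencing without LPS, silencing after LPS, LPS in silenced cells, LPS in control cells and the interaction, and changed no member's call. Without the block these numbers were 28, 94, 6337, 6300 and 8. With 3 libraries a group, rough depths and Oas1c and Oasl2 near the low end of FPKM without LPS, differences in those genes are the least certain.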
